A study of Homo sapiens with 4 samples.

Results

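The keratins KRT7, KRT8, KRT18, KRT19 and KRT23 and the related filament gene VIM (vimentin) were followed in human stem cells and in blastoids made from them. These 6 genes were taken by name from the 23364 genes listed in any of the 4 count tables. Cells were kept when they had at least 500 genes, and levels were read in stem cells, in all blastoid cells and in the blastoid cells with 2 or more detected of TFAP2A, TFAP2B, GABRP and VTCN1, called marker-positive cells here. The 6 genes played no part in choosing the cells, so their levels between sets of cells could be tested. The genes themselves were chosen with earlier results of these data known, and their p-values are to be read with this limit.

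Single-cell RNA libraries had been made with the 10x Chromium 3′ kit from 4 samples of KhES1, an established line of human embryonic stem cells. The samples hESC 1 and hESC 2 were stem cells grown on Matrigel in mTeSR-1 medium. The samples blastoid 3 and blastoid 4 were blastoids, aggregates of the same stem cells grown to resemble a blastocyst. For these, aggregates formed in mTeSR-1 with the ROCK inhibitor Y27632 were embedded in a PNIPAAm-PEG hydrogel, covered with DMEM with fetal bovine serum and then fed with iBlastoid medium. All 4 samples came from 1 line with no genetic change named in the labels. Titles and table names disagree on the day of the blastoid samples, so groups were taken from the sample descriptions. Nothing in the labels says that the samples of a group were separate cultures, so p-values measure only the spread between these samples, which may be technical.

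Keratins are the intermediate filament proteins of epithelial cells, and each filament is built from pairs of a type I and a type II chain. KRT8 and KRT7 are type II chains, KRT18, KRT19 and KRT23 are type I chains, and KRT8 with KRT18 is the pair found first in simple, single-layered epithelia and in the early embryo. Vimentin is the type III filament protein of mesenchymal cells. KRT7 is widely used as a marker of trophoblast and amnion. TFAP2A and TFAP2B are AP-2 transcription factors, GABRP is a GABA receptor subunit and VTCN1 is an immune checkpoint ligand, and these genes are used as markers of amnion-like cells.

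The cells kept numbered 2265 and 3175 in the stem cell samples and 2289 and 1951 in the blastoid samples, 9680 in all, with median depths of 5793, 4996, 6232 and 8828 UMIs (molecules counted by a tag). The sums behind each sample held between 13488703 and 18139535 UMIs. Levels are given in CPM, UMIs of a gene per 1000000 UMIs of that set of cells, and intervals are exact 95% intervals that cover counting error only. Libraries of a group shared many cell barcodes: 1317 in the stem cell pair and 1035 in the blastoid pair, against 6 to 14 between groups. All 1035 barcodes shared by the blastoids were kept cells of blastoid 4, and none was kept in blastoid 3. In the stem cell samples POU5F1, SOX2, NANOG and DPPA4, the markers of pluripotent cells, summed to 2030 and 2040 CPM. In the blastoid cells that were not marker-positive these genes summed to 233 and 264 CPM, while the stromal genes COL1A1, COL3A1, LUM and DCN summed to 2342 and 1771 CPM, against 13.6 and 15.5 CPM in the stem cells.

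Marker-positive cells made up 315 of 2289 cells of blastoid 3 (13.8%, 12.4 to 15.2%) and 592 of 1951 cells of blastoid 4 (30.3%, 28.3 to 32.4%). No stem cell was marker-positive. GABRP was the only gene of the rule listed in the stem cell tables, so no stem cell could have reached 2 in these tables. In marker-positive cells the rule's genes lay at 286 and 227 CPM for TFAP2A, 118 and 136 CPM for TFAP2B, 367 and 398 CPM for GABRP and 153 and 180 CPM for VTCN1, as the rule fixes. Their stromal genes summed to 219 and 277 CPM. In the other blastoid cells, cells with 2 or more detected of the 4 stromal genes and fewer than 2 of the 4 pluripotency genes, called stromal-marker cells here, numbered 1161 and 873. Cells with 2 or more pluripotency genes and fewer than 2 stromal genes numbered 130 and 127.

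The genes lie on 3 chromosomes of the human genome (RefSeq, GRCh38.p14). The type II genes KRT7 (chr12:52233243-52255853) and KRT8 (chr12:52897191-52949860) lie on chromosome 12 together with KRT18 (chr12:52948855-52952906), the only type I gene placed there, and the spans of KRT8 and KRT18 overlap by 1006 bases. KRT19 (chr17:41523617-41528308) and KRT23 (chr17:40922700-40937646) lie on chromosome 17, and VIM lies on chromosome 10 (chr10:17228241-17237593). RefSeq names 52 pseudogenes for KRT8, 68 for KRT18 and 5 for KRT19, none of which is a row of the tables. Reads shared with these near-identical copies may have been dropped or added by the counting, so the absolute levels of KRT8, KRT18 and KRT19 are uncertain.

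KRT8 and VIM differed in opposite directions between marker-positive and other blastoid cells, described below, and the RefSeq table of promoters (GRCh38.p14) held these 2 of the 6 genes. The 250 bases before the listed start of each are shown for comparison, with a match to the SP1 motif GGGCGG in capitals. The KRT8 stretch is chr12:52926470-52926719 on the minus strand, upstream of 1 start inside a longer gene span, and the VIM stretch is chr10:17227991-17228240 on the plus strand.
KRT8: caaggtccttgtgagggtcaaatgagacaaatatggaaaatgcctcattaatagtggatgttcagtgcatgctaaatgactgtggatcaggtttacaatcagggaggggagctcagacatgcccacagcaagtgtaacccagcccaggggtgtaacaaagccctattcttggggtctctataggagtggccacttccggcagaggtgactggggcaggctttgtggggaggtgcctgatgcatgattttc
VIM: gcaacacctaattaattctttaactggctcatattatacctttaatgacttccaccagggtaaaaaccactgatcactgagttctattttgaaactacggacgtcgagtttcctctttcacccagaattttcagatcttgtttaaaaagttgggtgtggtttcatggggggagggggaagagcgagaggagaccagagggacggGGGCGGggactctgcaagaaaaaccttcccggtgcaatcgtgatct
Of 6 motifs searched on both strands, the VIM stretch held the SP1 motif once and the KRT8 stretch held none. SP1's motif was in 42.6% of the 35116 promoters of this length. The motifs GCCNNNGGC of TFAP2 (in 19.8% of promoters), TGANTCA of AP-1 (6.57%), GGAATG of TEAD (11.9%), CACCTG of ZEB and SNAI proteins (17.5%) and TATAAA (10.7%) were not found in either stretch. A match or its absence describes these letters only.

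Blastoid cells as a whole carried more of all 6 transcripts than stem cells. All 6 genes were called higher by the edgeR quasi-likelihood test on UMIs summed per sample (Benjamini-Hochberg adjusted p under 0.05), where 50.3% of 16368 tested genes were called, 27.3% higher and 23.0% lower. With 1 gene in 2 called, the count alone says little about the keratins, and the sizes carry the description. In such sums, more cells of a type and more RNA per cell cannot be told apart.

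VIM showed the largest fitted change of the 5 genes with counts in both groups. It lay at 35.7 and 30.4 CPM in the stem cells and at 645 and 660 CPM in the blastoids, a rise of 4.17 ± 0.17 on the log2 scale (± SE, edgeR adjusted p = 5.22e-06). The blastoid values lay close together and far above both stem cell values.

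KRT19, the small type I keratin without a tail domain, lay at 142 and 127 CPM in the stem cells and at 894 and 1455 CPM in the blastoids, a rise of 3.01 ± 0.27 (edgeR adjusted p = 0.00013). KRT8 lay at 140 and 154 CPM against 941 and 1431 CPM, a rise of 2.89 ± 0.24 (edgeR adjusted p = 9.26e-05). KRT7 lay at 11.2 and 10.1 CPM against 49.8 and 88.4 CPM, a rise of 2.58 ± 0.30 (edgeR adjusted p = 0.000432). For each of these keratins blastoid 4 was higher than blastoid 3, and blastoid 4 also held the larger share of marker-positive cells. Blastoid 4 was the deeper sample too, with a median of 8828 against 6232 UMIs. KRT8 and KRT19 were also higher in blastoid 4 within the marker-positive cells and within the other cells. The part of each in the difference was not tested.

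KRT18 changed least. It was already at 463 and 446 CPM in the stem cells and lay at 816 and 1406 CPM in the blastoids, a rise of 1.17 ± 0.27 (edgeR adjusted p = 0.00886). The call was lost without hESC 1 (1.22, edgeR adjusted p = 0.0651) and without hESC 2 (1.13, edgeR adjusted p = 0.056), over a range of 3.55e-10 to 0.0651 across 12 alternatives. Without blastoid 4 the rise was 0.63 and without blastoid 3 it was 1.56. The number of genes called fell from 8227 to 4424 without hESC 1 and to 5038 without hESC 2.

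KRT23, a type I keratin outside the classic simple epithelial pairs, is not listed in either stem cell table and was given 0 counts there. It had 167 UMIs in 86 cells of blastoid 3 and 131 UMIs in 68 cells of blastoid 4, a mean level of 9.09 ± 2.65 CPM (SD, n = 2). The filter on listed genes is not given, so a gene missing from a table was assumed to have been found in at most 2 barcodes. The fold was therefore set against 9.15 counts over both stem cell samples. Under this assumption KRT23 was at least 28.7-fold higher in blastoids, and each later fold given as a lower limit rests on the same assumption. The call (edgeR adjusted p = 9.64e-05) belongs to the fit with 0 stem cell counts and not to this limit. Later p-values for KRT23 against stem cells come from such fits too.

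**Figure D1:**
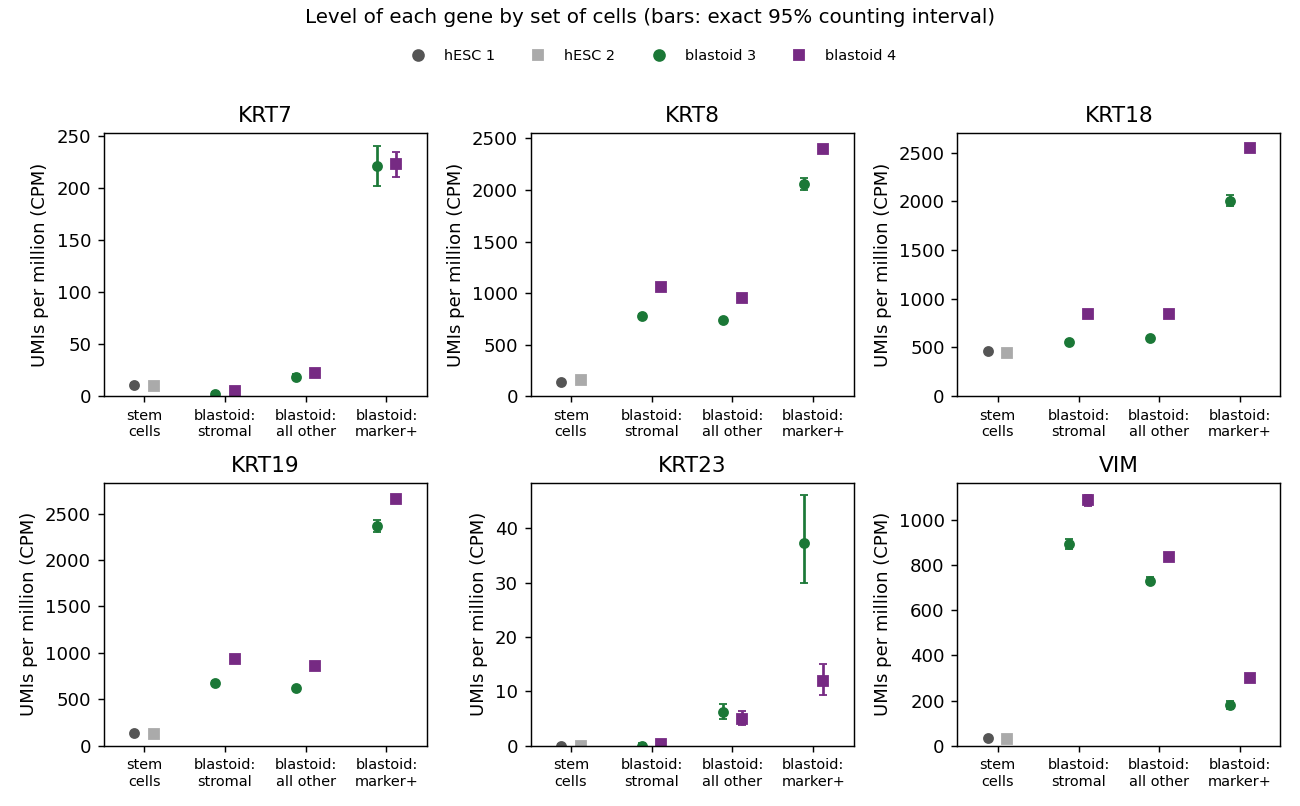
Level of each gene in CPM on linear axes from 0, by set of cells, with 1 point per sample and exact 95% counting intervals; stromal-marker cells are part of the other cells. KRT7, KRT8, KRT18 and KRT19 are highest in marker-positive cells of both blastoid samples (KRT7 221 and 223 CPM), while VIM is highest in stromal-marker cells (892 and 1085 CPM).

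Within the blastoids, all 5 keratins were higher and VIM was lower in marker-positive cells than in the other cells of the same sample. The test was edgeR's with the sample as a block, and it called 47.1% of 14892 genes, 24.1% higher and 23.0% lower. Marker-positive cells were somewhat deeper than the other cells, with medians of 6765 against 6147.5 UMIs in blastoid 3 and 9406 against 8581 UMIs in blastoid 4.

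KRT7 separated the sets most. It lay at 221 and 223 CPM in the marker-positive cells of blastoid 3 and blastoid 4 and at 18.5 and 22.3 CPM in the other cells, a rise of 3.57 ± 0.09 on the log2 scale or 11.9-fold (edgeR adjusted p = 3.01e-15). The samples thus gave nearly the same level although their shares of marker-positive cells differed. The size followed the cut: the rise was 5.50 when 1 detected gene sufficed, 2.56 when 3 were asked for and 1.99 in thinned cells, reduced to 2000 random UMIs each, with the marker rule applied after thinning.

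The paired keratins of simple epithelia rose together by smaller factors. KRT19 lay at 2368 and 2660 CPM against 624 and 863 CPM, a 3.73-fold rise (log2 1.90 ± 0.05, edgeR adjusted p = 1.13e-14). KRT18 lay at 2008 and 2549 CPM against 598 and 844 CPM, a 3.48-fold rise (log2 1.80 ± 0.05, edgeR adjusted p = 2.29e-15). KRT8 lay at 2059 and 2396 CPM against 736 and 957 CPM, a 2.89-fold rise (log2 1.53 ± 0.05, edgeR adjusted p = 1.88e-14). In each of these genes both marker-positive values lay above both values of the other cells.

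VIM went the other way. It lay at 181 and 299 CPM in marker-positive cells and at 730 and 837 CPM in the other cells, and fell by 1.59 ± 0.09 on the log2 scale (3.01-fold lower, edgeR adjusted p = 6.92e-11). Within a sample the log2 difference after TMM scaling, which the CPM given here do not have, was -1.90 in blastoid 3 and -1.34 in blastoid 4.

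KRT23 was called, but less securely. It lay at 37.3 and 11.9 CPM against 6.14 and 4.93 CPM, a rise of 2.12 ± 0.26 (edgeR adjusted p = 2.45e-06). The log2 differences within a sample, after TMM scaling, were 2.71 in blastoid 3 and 1.40 in blastoid 4. The call was lost with thinned cells (0.49, edgeR adjusted p = 0.625) and with a rule of 3 or more detected genes (0.30, edgeR adjusted p = 0.383), within a range of 1.49e-21 to 0.625 over its alternatives.

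Across all genes, the 7007 calls of this comparison became 4002 without the replicate block, 3183 with DESeq2 and 2225 with thinned cells. Without the block all 6 genes kept their call, with edgeR adjusted p between 5.91e-05 for KRT7 and 0.0111 for KRT23.

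The same order appeared when blastoid cells were split by how many of the 4 genes they held. The numbers of cells with 0, 1, 2, 3 and 4 of them were 1721, 253, 133, 126 and 56 in blastoid 3 and 1130, 229, 147, 221 and 224 in blastoid 4. Cells with all 4 were also the deepest, with medians of 9168 and 10289 UMIs, against 6090 and 8401 UMIs in cells with none. The part of depth in these steps was not tested.

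KRT7 was lowest in cells with none of the 4 genes and was near its full level once 2 were detected. In blastoid 3 it lay at 5.81, 93.8, 235, 213 and 210 CPM in cells with 0, 1, 2, 3 and 4 of the genes. In blastoid 4 it lay at 2.44, 107, 252, 217 and 212 CPM. Beyond 2 genes the counting intervals of neighbouring steps overlapped in both samples.

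KRT19 lay at 579, 890, 2191, 2528 and 2398 CPM over the same steps in blastoid 3 and at 787, 1184, 2410, 2691 and 2770 CPM in blastoid 4. KRT8 went from 685 to 1971 CPM between 0 and 2 genes in blastoid 3 and from 905 to 2246 CPM in blastoid 4. KRT18 went from 521 to 1989 CPM and from 750 to 2478 CPM. Unlike KRT7, these genes thus had a clear level in cells with none of the 4 markers.

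KRT23 had its highest level in the middle of the range. In blastoid 3 it lay at 1.36, 34.5, 74.7, 15.5 and 11.1 CPM, and in blastoid 4 at 0.61, 23.4, 27.3, 8.42 and 6.44 CPM. In both samples the counting interval at 2 genes lay above that at 3. In cells with TFAP2A as the only detected gene of the rule, KRT23 lay at 42.1 and 31.0 CPM (175 and 144 cells), and in cells with GABRP alone at 5.82 CPM and at 0 (53 and 52 cells).

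VIM lay at 785, 403, 163, 174 and 223 CPM in blastoid 3 and at 898, 576, 269, 245 and 362 CPM in blastoid 4. It was lowest in cells with 2 or 3 of the genes and higher again in cells with all 4. Even the lowest of these values lay above the stem cell levels of 35.7 and 30.4 CPM.

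**Figure D2:**
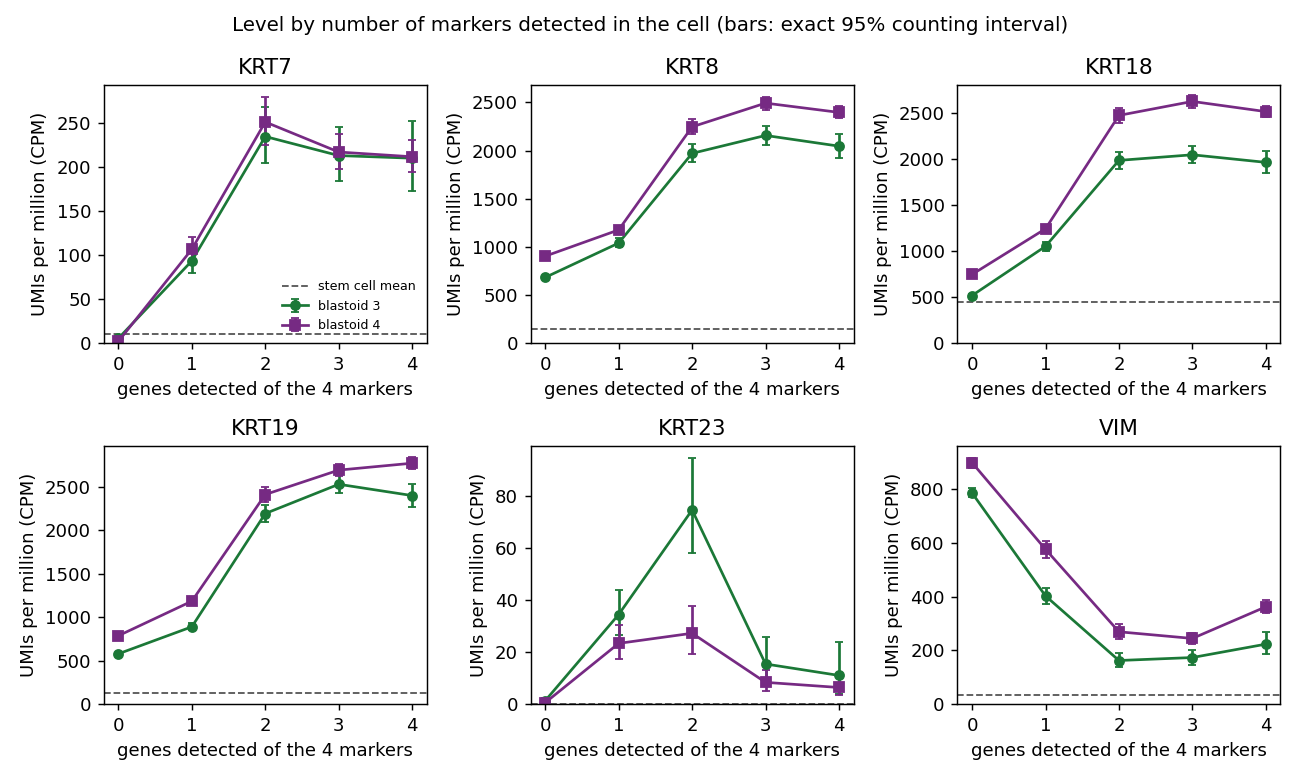
Level of each gene in CPM against the number of the 4 rule genes detected in a cell, for each blastoid sample, with exact 95% counting intervals; the dashed line is the mean of both stem cell samples. KRT7, KRT8, KRT18 and KRT19 reach most of their level at 2 genes, KRT23 is highest at 2 genes (74.7 and 27.3 CPM), and VIM falls between 0 and 2 genes.

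Set against stem cells, marker-positive cells were higher for all 6 genes, and edgeR called 58.1% of 15054 genes in this comparison, 30.2% higher and 27.9% lower. The stem cell samples are the same as in the comparison of all blastoid cells, so the values are given side by side and are not independent. The log2 rises were 4.35 ± 0.15 for KRT7, 4.20 ± 0.17 for KRT19, 3.90 ± 0.16 for KRT8, 2.86 ± 0.24 for VIM and 2.30 ± 0.17 for KRT18. KRT23 was at least 61.3-fold higher, with 38.1-fold as this limit without blastoid 3 and 120-fold without blastoid 4, computed after the data were seen. The largest edgeR adjusted p among them was 1.64e-05, for KRT23. With thinned cells 4218 genes were called in place of 8747, and KRT23 was too low to be tested.

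The other blastoid cells, against the same stem cells, were higher for all 6 genes too, with 53.1% of 15835 genes called, 28.3% higher and 24.8% lower. The large rises here were VIM with 4.42 ± 0.18, KRT8 with 2.39 ± 0.18 and KRT19 with 2.33 ± 0.20 on the log2 scale, the largest edgeR adjusted p being 1.88e-05 for KRT19. KRT23 was at least 17.8-fold higher. KRT7 rose by 0.79 ± 0.18 (edgeR adjusted p = 0.00518) and KRT18 by 0.53 ± 0.19 (edgeR adjusted p = 0.045).

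The call for KRT18 in the other cells was marginal. It was lost without hESC 1 (0.58, edgeR adjusted p = 0.147), without hESC 2 (0.48, edgeR adjusted p = 0.226), without blastoid 4 (0.19, edgeR adjusted p = 0.2), with the shared barcodes left out (0.59, edgeR adjusted p = 0.0629) and with cells of 1 marker left out of the other cells (0.35, edgeR adjusted p = 0.155), within a range of 5.41e-06 to 0.226. The direction for KRT7 depended on where cells with 1 marker were put. With those cells left out of the other cells, KRT7 fell by 1.50 on the log2 scale (edgeR adjusted p = 0.00198, largest of all alternatives 0.0462), and with thinned cells it rose by 2.01.

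Leaving out the shared barcodes changed no other call of the 6 genes. The log2 rise in all blastoid cells was then 2.44 for KRT7, 2.89 for KRT8, 1.12 for KRT18, 2.99 for KRT19 and 4.26 for VIM. Between marker-positive and other cells it was 3.78, 1.41, 1.70 and 1.81 for these keratins and 2.26 for KRT23, and VIM fell by 1.98.

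The stromal-marker cells carried KRT8, KRT18 and KRT19 almost without KRT7 and KRT23. KRT8 lay at 780 and 1058 CPM in these cells, KRT18 at 561 and 840 CPM and KRT19 at 678 and 937 CPM. KRT7 lay at 2.41 CPM (18 UMIs) and 5.46 CPM (41 UMIs), below both stem cell values. KRT23 had 0 UMIs in blastoid 3, and 2 UMIs or 0.27 CPM (0.032 to 0.962) in blastoid 4.

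The keratins thus stood in different ratios in the sets. At the marker-positive ratio of KRT8 to KRT7, the KRT7 of the stromal-marker cells would go with 22.4 CPM of KRT8 in blastoid 3 and 58.6 CPM in blastoid 4, 2.88% and 5.54% of the KRT8 found there. For KRT18 the shares were 3.90% and 7.43%, and for KRT19 3.80% and 6.95%. The KRT8 level of stromal-marker cells was 37.9% and 44.2% of the marker-positive level.

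The level of VIM in marker-positive cells was 20.3% and 27.6% of that in stromal-marker cells. Of the marker-positive cells, 65 and 185 also held 2 or more stromal genes, a split added after the data were seen. Without them VIM lay at 176 and 223 CPM, and in them at 194 and 435 CPM. KRT8 was nearly the same in both kinds, at 2072 and 2422 CPM without and 2025 and 2349 CPM with stromal genes. The part of stromal RNA in the VIM of marker-positive cells was not tested.

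Blastoid cells with pluripotency genes also differed from the stem cells. They were deeper, with medians of 8644 and 12457 UMIs against 5793 and 4996 UMIs in the stem cells. The part of depth in choosing them was not tested. In the 130 and 127 cells of this kind, KRT8 lay at 497 and 583 CPM, KRT19 at 305 and 426 CPM and VIM at 244 and 128 CPM, each above both stem cell samples. KRT18 lay at 590 and 780 CPM. KRT7 had 16 UMIs in 3 cells in blastoid 3, with an interval of 8.03 to 22.8 CPM that holds both stem cell values. In blastoid 4 it had 68 UMIs in 15 cells, or 42.4 CPM.

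Placed in order of level, KRT8 ran from stem cells through cells with pluripotency genes and stromal-marker cells to marker-positive cells, with no overlap between the sample values of neighbours. KRT19 had the same order, also with no overlap. For KRT18 the stromal-marker cells and the cells with pluripotency genes overlapped. For KRT7 the stromal-marker cells came first, then stem cells, cells with pluripotency genes and marker-positive cells. In blastoid 3 the counting interval of KRT7 in cells with pluripotency genes held both stem cell values, so that step was not separated there. For VIM the order was stem cells, then cells with pluripotency genes and marker-positive cells, which overlapped, and then stromal-marker cells.

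The balance of the partner chains shifted as well. The stem cells held 3.30 (3.14 to 3.48) and 2.89 (2.76 to 3.03) KRT18 UMIs per KRT8 UMI. The ratio was 0.812 and 0.883 in the other blastoid cells, 0.975 and 1.06 in marker-positive cells, and 0.719 and 0.794 in stromal-marker cells. Cells with pluripotency genes lay between, at 1.19 and 1.34. A 3′ library counts the end of each transcript, and the pseudogenes named above bear on the absolute ratio, so its change between sets is the measurement. Over all 5 keratins, type I UMIs per type II UMI went from 4.00 and 3.49 in stem cells to 1.63 and 1.75 in the other cells and 1.94 and 1.99 in marker-positive cells.

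**Figure D3:**
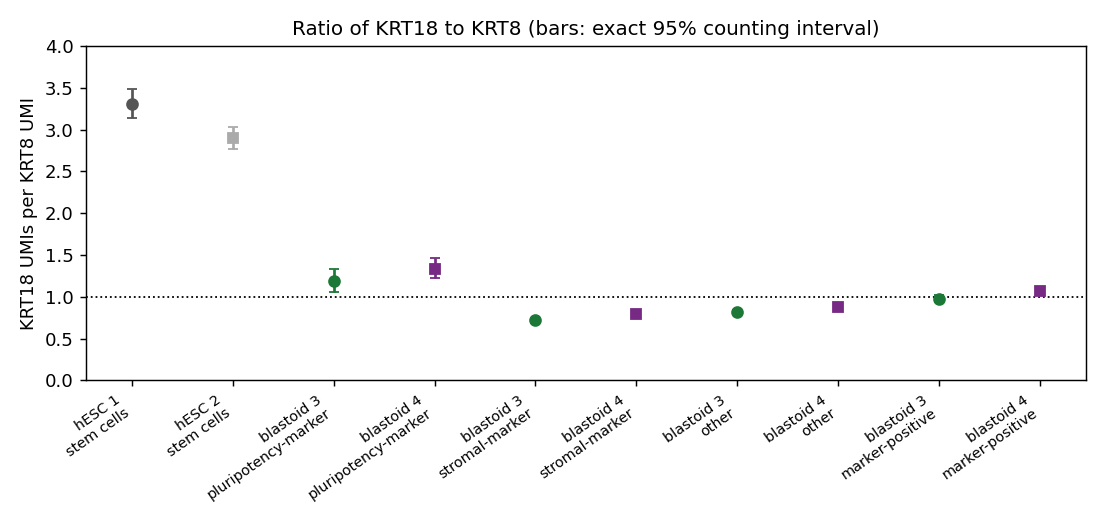
KRT18 UMIs per KRT8 UMI on a linear axis from 0, by sample and set of cells, with exact 95% counting intervals; the dotted line marks equal counts. Both stem cell samples lie near 3 (3.30 and 2.89), and the blastoid sets lie between 0.719 and 1.34.

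Keratin against vimentin separated the sets further. There were 21.2 and 24.3 keratin UMIs per VIM UMI in stem cells, 2.72 and 3.22 in the other blastoid cells and 37.0 and 26.2 in marker-positive cells. The stem cells reached their ratio at a low sum of the 5 keratins, 756 and 737 CPM, and the marker-positive cells at 6693 and 7840 CPM. The other cells lay at 1983 and 2691 CPM.

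Detection per cell was also compared in cells thinned to 2000 UMIs, but here each cell kept the set given to it at full depth. This left 1830, 2202, 2181 and 1909 cells. KRT19 was then found in 26.6% and 23.4% of stem cells, in 62.6% and 71.7% of the other blastoid cells and in 97.0% and 97.1% of marker-positive cells. KRT8 was found in 24.5% and 25.6%, in 66.5% and 73.2% and in 93.7% and 94.4% of these cells. The groups did not overlap for either gene.

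KRT18 was found in 57.8% and 57.2% of stem cells and in 54.7% and 66.7% of the other blastoid cells, which overlapped, and in 92.1% and 95.2% of marker-positive cells. KRT7 was found in 2.46% and 1.95% of stem cells and 2.40% and 2.57% of the other cells, which overlapped too, and in 32.0% and 30.7% of marker-positive cells. KRT23, not listed for the stem cells and set to 0 there, was found in 0.852% and 1.29% of the other cells and in 8.25% and 1.02% of marker-positive cells. After thinning it was thus more often found in marker-positive cells in blastoid 3 but not in blastoid 4. The blastoid 4 shares rest on 6 of 587 marker-positive and 17 of 1322 other cells. Without thinning, KRT23 was found in blastoid 4 in 7.43% (5.45 to 9.85%) of marker-positive cells and 1.77% (1.13 to 2.62%) of the other cells. In stromal-marker cells KRT7 was found in 0.436% and 0.81% of thinned cells. VIM was found in 6.72% and 6.95% of stem cells, 66.2% and 68.8% of the other cells and 24.8% and 33.0% of marker-positive cells. With 2 samples against 2 the exact two-sided permutation test cannot go below p = 0.333, which it reached wherever groups did not overlap, so the shares are descriptions.

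KRT7 in stem cells was a matter of single molecules. Of 141 stem cells with KRT7 in hESC 1, 133 had 1 UMI, and of 149 in hESC 2, 138 had 1 UMI. These cells held POU5F1 at 1129 and 1150 CPM, against 1156 and 1140 CPM in cells without KRT7. In the blastoids 301 and 477 cells held KRT7, of which 206 (68.4%) and 399 (83.6%) were marker-positive. Among cells with 2 or more KRT7 UMIs the shares were 119 of 162 (73.5%) and 287 of 324 (88.6%).

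KRT23 was spread more widely. Of its 86 and 68 cells, 46 (53.5%) and 44 (64.7%) were marker-positive, while TFAP2A was detected in 74.4% and 89.7% of them. VIM lay at 120 and 166 CPM in cells with KRT23 and at 670 and 681 CPM in blastoid cells without it. In marker-positive cells that also held 2 or more pluripotency genes, 25 and 60 cells, KRT23 lay at 101 CPM (65.9 to 148) and 22.7 CPM (13.2 to 36.4).

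In thinned cells KRT8, KRT18 and KRT19 were found together in 85.8% and 88.8% of marker-positive cells, 30.5% and 43.2% of the other blastoid cells and 4.70% and 3.41% of stem cells. A cell with none of the 5 keratins was rare among marker-positive cells, 2 of 303 in blastoid 3 and 0 of 587 in blastoid 4, which allows up to 0.626% by the exact interval. Of stem cells, 24.6% and 25.2% had none.

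VIM was often found in the same cells as these keratins outside the marker-positive set. KRT8, KRT18, KRT19 and VIM were all found in 26.7% and 41.0% of stromal-marker cells and in 21.1% and 29.0% of marker-positive cells. These shares depend on how common each is: in stromal-marker cells the 3 keratins were found together in 34.1% and 49.2%, and VIM in 74.1% and 80.2%. Whether they occur together more often than these separate shares give was not tested. Among all blastoid cells, VIM was found in 66.8% of cells with 1 to 4 keratin UMIs per 2000 and in 25.7% of cells with 15 or more in blastoid 3, and in 62.1% and 34.0% in blastoid 4.

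In the other cells VIM was found in 67.0% (64.1 to 69.9%) of cells with 1 to 4 keratin UMIs and in 31.7% (18.1 to 48.1%) of the 41 cells with 15 or more in blastoid 3. In blastoid 4 the shares were 62.7% (58.7 to 66.6%), 78.7% (74.5 to 82.5%) with 5 to 9 UMIs and 50.7% (38.6 to 62.8%) with 15 or more. In stromal-marker cells such a fall was not seen in blastoid 4 and could not be judged in blastoid 3. With 15 or more keratin UMIs, they held VIM in 81.6% (65.7 to 92.3%) of 38 cells in blastoid 4. In blastoid 3 the share was 70.0% of only 10 cells, with a wide interval of 34.8 to 93.3%. Stromal-marker cells with 1 to 4 and with 10 to 14 keratin UMIs held VIM in 72.4% and 82.5% of cells in blastoid 3 and in 73.6% and 83.8% in blastoid 4. Marker-positive cells with 5 to 9 and with 15 or more keratin UMIs held VIM in 16.4% and 23.8% of cells in blastoid 3. The shares in blastoid 4 were 34.8% and 30.1%, and the intervals overlapped in both samples. With 1 to 4 keratin UMIs, marker-positive cells held VIM in 41.7% of 12 cells in blastoid 3 and 42.9% of 21 cells in blastoid 4. These intervals also overlapped those at 15 or more, so a fall in marker-positive cells could not be judged.

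**Figure D4:**
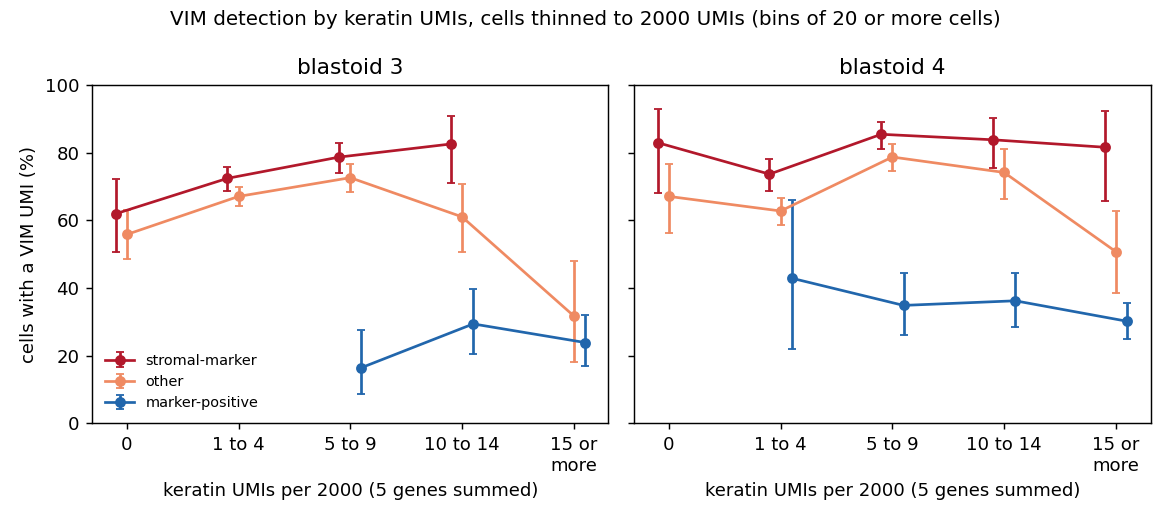
Percent of thinned cells with a VIM UMI against the summed keratin UMIs per 2000 UMIs, for each blastoid sample, with exact 95% intervals and bins of at least 20 cells. The other cells fall to 31.7% and 50.7% at 15 or more keratin UMIs, while stromal-marker cells stay high in the bins drawn. Their bin at 15 or more in blastoid 3 had 10 cells and is not drawn. Marker-positive cells stay low in the bins drawn, from 16.4% to 29.3% in blastoid 3 and from 30.1% to 42.9% in blastoid 4.

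Across thinned cells of the same blastoid set, KRT8 and KRT18 had the highest correlation of any pair of the 6 genes in marker-positive, stromal-marker and other cells of both samples. Pearson's r between them was 0.43 and 0.58 in marker-positive cells (303 and 587 cells), 0.37 and 0.47 in stromal-marker cells (1148 and 864 cells) and 0.48 and 0.54 in the other cells (1878 and 1322 cells). In stem cells (1830 and 2202 cells) it was 0.05 and 0.03, below the 0.08 and 0.06 of KRT18 with KRT19. Thinned stem cells held a mean of only 0.279 and 0.302 KRT8 UMIs, against 4.25 and 4.92 in marker-positive cells. Their variance per mean for KRT8 was 0.987 and 1.03, near that of counting error alone. Such counts keep r near 0, so the stem cell values cannot show whether these genes vary together. Pearson's r between KRT8 and VIM was 0.07 and -0.06 in marker-positive cells. Cells of a set share a library and a depth, so these values are descriptions.

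Other keratins were few. Of 16 keratin symbols listed in any table, the 5 genes described here held 90.5% and 90.4% of keratin UMIs in stem cells, 94.8% and 95.7% in the other blastoid cells and 96.9% and 97.0% in marker-positive cells. Of 5 other keratins tested between marker-positive and other cells, edgeR called 4 higher and 1 lower, with a median log2 change of 2.37 against -0.02 for all genes. KRT16, a type I keratin of stressed stratified epithelia, lay at 55.6 and 81.3 CPM against 3.11 and 1.97 CPM (log2 4.87 ± 0.20). KRT17, a type I keratin of basal and appendage epithelia, lay at 38.2 and 44.5 CPM against 1.63 and 2.80 CPM (log2 4.34 ± 0.20). Both have near-identical relatives, so their counts are uncertain. KRT10 lay between 75.7 and 115 CPM in all 6 sums.

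Lists of genes tied to filaments and epithelia, chosen with earlier results of these data known, were read in the same comparison of marker-positive with other cells. All 13 tight junction genes were higher, where 24.1% of all genes tested were higher and 23.0% lower, with a median log2 change of 2.31. CLDN4, a claudin that seals the gap between cells, lay at 196 and 182 CPM against 16.2 and 22.4 CPM (log2 3.42 ± 0.11). All 11 tested regulators of the epithelial state were higher, with a median of 2.57, among them GRHL2 at 60.7 and 47.5 CPM against 4.66 and 3.13 CPM (log2 3.93 ± 0.16). All 7 tested regulators of the mesenchymal state were lower, with a median of -3.25. PRRX1, a homeobox factor of limb and other mesenchyme, lay at 19.1 and 19.2 CPM against 477 and 392 CPM.

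The genes that anchor filaments were mostly higher, read against the same 24.1% higher and 23.0% lower over all genes. Of 14 desmosome and plakin genes, 9 were higher, 1 was lower and 4 were not called, with a median of 0.57. PKP3, a plakophilin of the desmosome plaque, rose by 2.52 ± 0.26 and PPL, the plakin periplakin, by 2.30 ± 0.18, while DSC3, a desmosomal cadherin, fell by 2.66 ± 0.16. Of 12 other intermediate filament genes, 10 were lower and 1 was higher, with a median of -1.18. PRPH, the type III filament peripherin, lay at 3.40 and 2.51 CPM against 60.9 and 90.2 CPM. Of 8 filament chaperones and binding proteins, 4 were higher and 1 was lower, with a median of 0.32, and HSPB1, a small heat shock protein, rose by 0.74 ± 0.07.

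Between the other blastoid cells and stem cells, KRT8 and KRT19 were higher as well, and 28.3% of all genes tested were higher and 24.8% lower. Of the 13 tight junction genes 11 were lower and 0 higher, with a median of -1.34, among them CLDN6 at 49.3 and 46.5 CPM against 132 and 156 CPM in stem cells. Of 7 mesenchymal regulators 6 were higher. ZEB1, a repressor of epithelial genes, entered with 0 UMIs in the stem cells and was at least 92.4-fold higher under the assumption made for KRT23. Of 10 epithelial regulators 5 were higher and 4 lower: KLF5, a Krüppel-like factor of epithelia, rose by 3.24 ± 0.32 and ESRP1, a splicing factor of epithelial cells, fell by 2.56 ± 0.13. Of 14 desmosome and plakin genes 8 were higher and 4 lower, and the median was 0.60. Of 13 other intermediate filament genes 5 were higher and 3 lower, and of 8 chaperones 1 was higher and 3 were lower. The 3 of 13 filament genes lower are near the share over all genes.

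**Figure D5:**
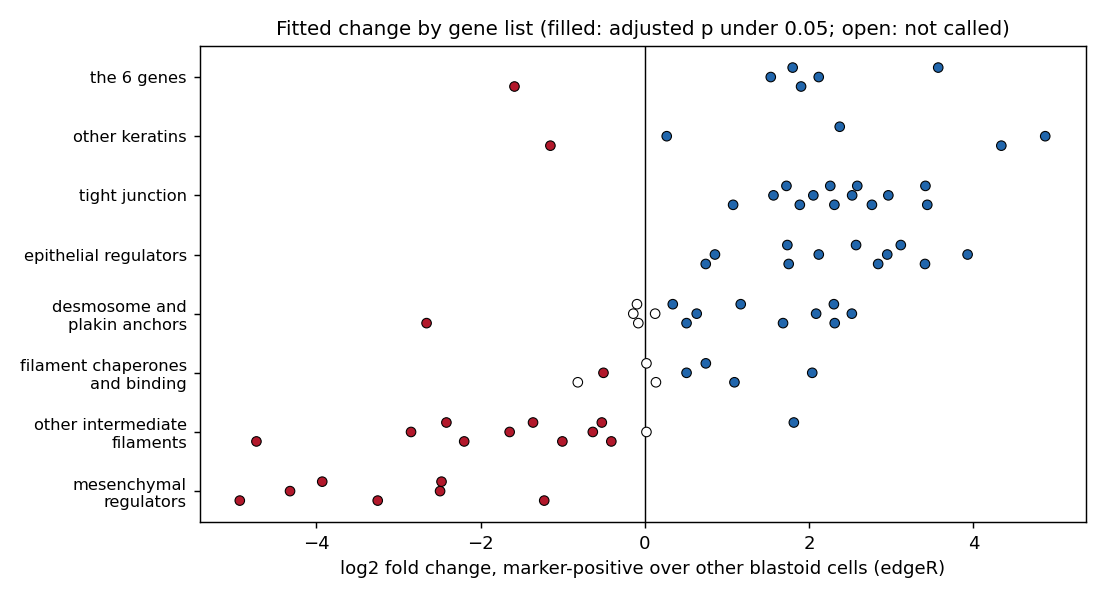
Fitted log2 fold change of marker-positive over other blastoid cells (edgeR) for the 6 genes and for each gene of 7 lists; filled points passed an adjusted p of 0.05 (blue higher, red lower) and open points did not. All 13 tight junction genes and 11 epithelial regulators lie above 0, and all 7 mesenchymal regulators lie below it.

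Genes of like pattern were looked for over 6 sums, those of both stem cell samples, the other cells and the marker-positive cells of both blastoids. Likeness was the root mean square difference of centred log2(CPM + 1), where 0 is the same pattern, among 9187 genes with a mean of at least 10 CPM. KRT7 was most like KRT17 (0.21), ENPEP (0.24) and EYA1 (0.25). KRT8 was most like CCN1 (0.10), KLF6 (0.12) and ATP2B1 (0.14), and KRT19 like KLF6 (0.16), MXRA8 (0.16) and CCN1 (0.17). KRT18 was most like STARD10 (0.08), SELENOM (0.12) and VAMP8 (0.13). KRT23 found no close match, its nearest being TMEM154 (0.34), and VIM was nearest to NTRK2 (0.25). Among the 6 genes themselves KRT8 and KRT19 were closest (0.18), and KRT7 and VIM were farthest apart (2.17).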

How the data were processed

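For each sample the authors deposited a table of UMI counts, not normalized, with a row per gene symbol and a column per barcode. Per the submitters' processing notes, Cell Ranger and GRCh38 were used, and versions, annotation and filters are not given in the sources used here. Barcodes with 500 or more genes were kept. Scrublet (scanpy 1.11.5, expected rate 6%) marked 73 of 9680 cells (0.754%), none of them in hESC 2. These cells were kept, and leaving them out was an alternative. UMIs were summed per sample and set of cells and tested with edgeR 4.0.16 (R 4.3.3, TMM, filterByExpr, quasi-likelihood) in 4 comparisons over all genes, with Benjamini-Hochberg adjustment. The comparison within blastoids has the sample as block, since both sums of a sample come from 1 suspension. The code was tested on simulated data. CPM uses total UMIs without TMM, and fold changes and log2 differences within a sample use TMM. Genes that a table does not list entered as 0 counts. Shares carry Clopper-Pearson and levels Poisson intervals. Named genes are the 6 genes, the rule's genes, other keratins, the lists' genes of largest change and the 3 nearest genes by pattern. The 6 genes and the lists were chosen with earlier results of these data known. Alternatives were other scaling, DESeq2 1.42.0, no low-count filter, Scrublet calls left out, other gene minimums, thinning, shared barcodes left out, other marker rules, no block, and each sample left out.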

Additional observations from a re-analysis of the deposited data

How the results depend on the processing

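Of the log2 fold changes of the 6 genes under the alternatives, 306 kept their direction and, where a test was run, their call. Another 9 lost the call and 1 reversed. The 306 include the untested differences within 1 blastoid sample, which have a direction but no call. The reversal was KRT7 in other blastoid cells against stem cells, at -1.50 when 1 detected marker made a cell marker-positive. Under that rule 3 of the 6 genes were called higher and 1 lower. The genes called in blastoids against stem cells, 8227 as reported, ranged from 4424 to 10033 with 1 sample left out. In marker-positive against other blastoid cells they went from 7007 to 3183 with DESeq2 and 2225 with thinned cells. With no replicate block, that is without pairing both sums of a sample, they were 4002. No pairing of stem cell with blastoid samples was possible because they share no replicate number. In marker-positive cells against stem cells 8747 genes became 4218 with thinned cells. The cause was not tested, except that thinning removes UMIs by construction. Leaving out 1 blastoid sample leaves the comparison within blastoids with 1 pair and no test, and where it leaves 1 sample in a group that sample is assumed to vary like the other group. KRT23 could not be tested in some fits for low counts. Depth limits KRT7 and KRT23 most: the mean share of marker-positive cells with KRT7 was 31.3% at 2000 UMIs and 66.4% with no thinning. Library size in place of TMM moved the median log2 change of all genes by 0.13 in blastoids against stem cells, -0.13 within blastoids and 0.15 in other cells against stem cells.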

Other observations

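The antisense transcript VIM-AS1, which lies beside VIM, had few UMIs: 5 and 4 in the stem cell samples, 22 in blastoid 3 and 15 in blastoid 4. Its level was 2.55 and 1.17 CPM in marker-positive cells and 1.24 and 0.658 CPM in the other blastoid cells, with overlapping counting intervals.

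Blastoid cells outside the marker-positive set with neither 2 stromal nor 2 pluripotency genes numbered 632 and 315. KRT7 lay at 49.5 and 62.4 CPM and KRT23 at 20.6 and 17.3 CPM in them, against 2.41 and 5.46 CPM and 0 and 0.27 CPM in stromal-marker cells. VIM lay at 572 and 571 CPM.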
